A study of Mus musculus with 9 samples.

Results

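The 53 genes described here are the interferon-induced genes and the transcription factors that switch them on, measured in whole eyes of 3 inbred mouse strains. They were chosen by symbol from the 13089 genes listed for every library: all rows beginning with Ifi and a digit, Ifit, Isg and a digit, Oas, Gbp and a digit, Irf and a digit, Stat and a digit or Mx and a digit, with Usp18, Rsad2, Ddx58, Ifih1, Dhx58, Bst2, Iigp1 and Igtp named singly. Irgm1 and Irgm2 were also sought and had no row under those symbols. The genes comprise 7 Oas, 6 Ifit and Ifitm, 5 Gbp, 8 other Ifi, 9 Irf and 6 Stat rows and 12 further genes. Irf2bp1, which the symbol rule takes in with the Irf rows, encodes a co-repressor and not an interferon regulatory factor. The row named Gbp1 is Gbp2b in current annotation, and the row named Ifi27 carries the description of Ifi27l2a.

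The study compared eyes of strains that lose retinal cells at different rates. Poly(A) RNA of whole eyes was sequenced from wild type females aged 4 weeks of A/J (an albino strain), BALB/c (also albino) and C57BL/6J (pigmented), with 3 libraries per strain and 9 in all. All groups were untreated as far as the labels say, and each library held RNA pooled from 5 mice, so the spread among individual mice was not measured. The labels do not say whether a strain's libraries came from separate pools, so p-values reflect only the spread between libraries and that spread may be technical. Levels are the authors' deposited values, taken as RPKM (reads scaled to transcript length and to the library's mapped reads), and the read depth behind them is unknown.

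Interferons are secreted proteins that cells release when sensors such as the products of Ddx58 and Ifih1 meet viral RNA. They bind receptors on neighbouring cells, whose Janus kinases phosphorylate STAT proteins. Some STAT proteins, Stat2 among them, join Irf9 and bind a DNA element called the interferon-stimulated response element, while STAT pairs bind the gamma-activated site. The induced genes make proteins that destroy, trap or label viral components, and others that damp the signal. In the eye, whose neurons are hardly replaced after injury, immune responses are known to be held in check.

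Across the 53 genes, levels of many antiviral effectors were higher in A/J and BALB/c eyes than in C57BL/6J eyes, whereas no Irf or Stat row passed the test in any comparison of 2 strains in the main fit of all 9 libraries. With a GC correction or a block for replicate number, Irf7 passed in both comparisons with C57BL/6J. Oas1a, Oas2, Oas3, Isg15, Gbp1, Ifi44 and Ifi27 were called higher in both albino strains, and the exonuclease gene Isg20 lower in both. Calls were made where the adjusted p was under 0.05 in limma, a linear model fitted here to log2(scaled RPKM + 0.5) of all 12920 genes that reached 1 RPKM in at least 3 libraries. Genes said to be called or not called are those of this fit unless another fit is named. Of the 53 genes, 14 were called in A/J against C57BL/6J (13 higher and 1 lower, 26.4% of them), where 2.69% of all genes tested were called (1.08% higher and 1.62% lower). In BALB/c against C57BL/6J, 12 were called (9 higher and 3 lower, 22.6%), against 3.09% of all genes (1.93% higher and 1.15% lower). These comparisons share the C57BL/6J libraries and are not independent. Between the albino strains, A/J against BALB/c, 5 were called (9.43%), against 2.48% of all genes: 4 were higher, where 0.573% of all genes were called higher, and 1 was lower, against 1.9%. The F test for any difference among the strains called 17 of the 53, against 4.47% of all genes. In whole eyes, fewer cells of a type and less RNA per cell cannot be told apart.

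The size of the differences was uneven across the 53 genes. The median log2 difference was 0.42 in A/J against C57BL/6J, where it was -0.01 over all genes tested. It was 0.18 in BALB/c against C57BL/6J and 0.30 in A/J against BALB/c, where all genes again had -0.01 in both. Mean RPKM ran in the order A/J, BALB/c, C57BL/6J for 21 of the 53 genes (39.6%), an order seen for 7.83% of all genes tested. All 53 passed the filter on low values, and 39 were at 1 RPKM or more in all 9 libraries. The tables list only genes whose highest strain mean is about 1 RPKM or more, so low members are there because of the strain in which they are highest. Mean levels under 1 RPKM were found for 1 gene in A/J (Isg20), for 4 in BALB/c (Ifi204, Iigp1, Isg20 and Mx2) and for 7 in C57BL/6J (Gbp1, Gbp4, Ifi203, Ifi44, Mx2, Oas2 and Oas3). Of those 7, all but Ifi203 were called higher in A/J than in C57BL/6J.

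**Figure D1:**
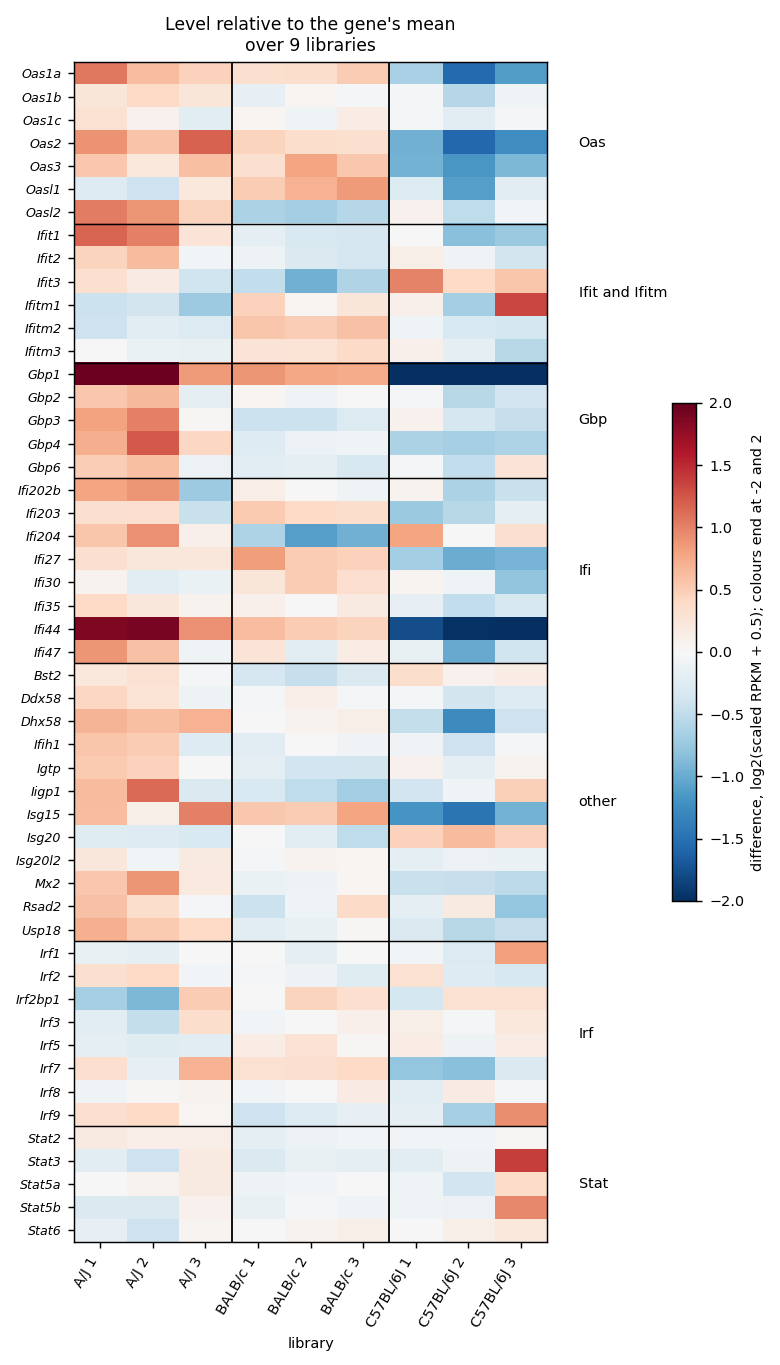
Each row is 1 of 51 of the genes, grouped by subfamily, and each column is a library, with A/J at the left, BALB/c in the middle and C57BL/6J at the right. Colour is the difference of log2(scaled RPKM + 0.5) from the gene's mean over the 9 libraries, and the upper blocks (Oas, Gbp and Ifi) are mostly red in A/J and blue in C57BL/6J.

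Library A/J 3 stood apart from A/J 1 and A/J 2, and C57BL/6J 3 from its fellow libraries. Spearman correlations between libraries of a strain ran from 0.916 to 0.990 in A/J, from 0.990 to 0.996 in BALB/c and from 0.910 to 0.981 in C57BL/6J. A/J 3 lay below the mean of A/J 1 and A/J 2 for 37 of the 53 genes, where 51.4% of all genes tested did so. Its deviation moved with the GC content of the transcript: the median over members was -0.77 on the log2 scale for the Gbp genes (median GC 45.2%), -0.70 for the Ifi genes (43.2%), 0.10 for the Irf genes (55.1%) and 0.24 for the Stat genes (52.6%). The members' median lay below that of all genes in each of 5 bins of GC content. The median deviation of A/J 3 was -1.07 over members and -0.78 over all genes between 35 and 40% GC, -0.62 and -0.52 between 40 and 45%, and -0.52 and -0.24 between 45 and 50%. It was -0.04 over members and 0.09 over all genes between 50 and 55%, and 0.14 and 0.53 between 55 and 65%. In C57BL/6J 3, Ifitm1, Stat3, Irf9, Stat5b and Irf1 lay 1.62, 1.55, 1.35, 1.07 and 0.98 above their fellow libraries on the log2 scale, members picked out after their values were seen. None of these 5 was called in any comparison, with or without C57BL/6J 3. Without it, the log2 difference of A/J against C57BL/6J was 0.01 for Stat3 (-0.50 with it), 0.67 for Irf9 (0.22), -0.06 for Stat5b (-0.42) and 0.05 for Irf1 (-0.27).

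**Figure D2:**
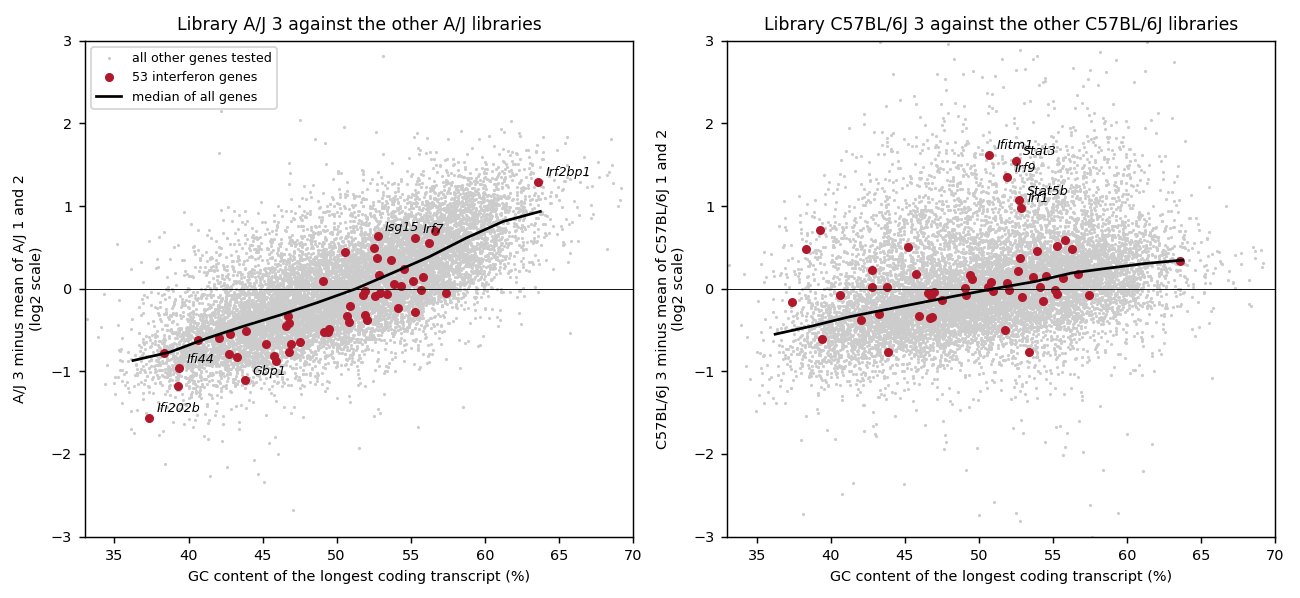
The left panel plots, for each gene, the level in A/J 3 minus the mean of A/J 1 and A/J 2 (log2 scale) against the GC content of its longest coding transcript in percent, and the right panel plots the same for C57BL/6J 3. Red points are the 53 genes, grey points all other genes tested and the line the median of all genes, which climbs with GC in both panels.

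The promoters of the 5 called genes with the strongest F test and an entry in the RefSeq promoter table are shown because the genes they drive differ most among the strains. Each is 300 bases on the strand of the gene, from 250 before the annotated start to 50 after it, in build GRCm38.p6. Capitals mark matches to the core of the interferon-stimulated response element, GAAANNGAAA, on either strand.
Gbp1, guanylate-binding GTPase (chr3:142594597-142594896, plus strand): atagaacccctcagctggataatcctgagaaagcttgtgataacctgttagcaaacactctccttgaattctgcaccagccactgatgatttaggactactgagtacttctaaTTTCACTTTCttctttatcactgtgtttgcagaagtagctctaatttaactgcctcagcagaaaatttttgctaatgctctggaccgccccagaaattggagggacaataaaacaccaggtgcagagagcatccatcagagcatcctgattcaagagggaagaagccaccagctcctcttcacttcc
Ifi44 (chr3:151749861-151750160, minus strand): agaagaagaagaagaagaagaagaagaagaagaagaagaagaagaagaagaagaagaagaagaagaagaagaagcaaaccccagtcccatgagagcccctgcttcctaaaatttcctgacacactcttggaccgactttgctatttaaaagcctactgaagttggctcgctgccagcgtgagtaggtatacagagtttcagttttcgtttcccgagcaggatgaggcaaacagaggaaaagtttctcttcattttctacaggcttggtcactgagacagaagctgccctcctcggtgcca
Oas3, oligoadenylate synthetase (chr5:120777610-120777909, minus strand): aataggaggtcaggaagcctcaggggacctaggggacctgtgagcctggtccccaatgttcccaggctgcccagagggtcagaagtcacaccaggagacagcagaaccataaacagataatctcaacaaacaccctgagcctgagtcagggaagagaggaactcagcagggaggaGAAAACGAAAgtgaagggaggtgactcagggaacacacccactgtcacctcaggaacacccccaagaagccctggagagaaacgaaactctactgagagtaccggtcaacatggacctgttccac
Isg15, ubiquitin-like modifier (chr4:156200769-156201068, minus strand): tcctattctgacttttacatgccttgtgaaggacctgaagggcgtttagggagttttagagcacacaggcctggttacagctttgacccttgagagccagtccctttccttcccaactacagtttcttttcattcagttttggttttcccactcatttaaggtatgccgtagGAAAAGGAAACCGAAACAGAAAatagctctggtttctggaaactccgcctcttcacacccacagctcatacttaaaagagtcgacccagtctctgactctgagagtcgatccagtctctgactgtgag
Oas1a, oligoadenylate synthetase (chr5:120907476-120907775, minus strand): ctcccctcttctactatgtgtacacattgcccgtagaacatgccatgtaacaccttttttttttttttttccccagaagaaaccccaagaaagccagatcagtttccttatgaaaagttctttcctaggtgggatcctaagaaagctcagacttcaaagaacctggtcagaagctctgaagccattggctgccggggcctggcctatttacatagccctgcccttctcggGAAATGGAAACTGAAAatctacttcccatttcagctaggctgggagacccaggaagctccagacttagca
In Gbp1 the match begins 137 bases before the start and lies on the opposite strand, where it reads TTTCNNTTTC. The Oas3 match begins 75 bases before the start. In Isg15, 3 overlapping matches begin 78, 72 and 66 bases before it, and in Oas1a 2 overlapping matches begin 20 and 14 bases before it. The Ifi44 window holds no match to these letters.

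Among the 41 members with a promoter entry, 18 (43.9%) held the response element core, against 2.77% of the promoters of the 10028 tested genes with an entry and 3.49% of all 27025 promoters in the table. The gamma-activated site, TTCNNNGAA, which reads the same on both strands, was found in 12 member promoters (29.3%), against 6.48% of those of tested genes and 8.47% of all. The core was found in 3 of 3 Gbp, 4 of 6 Ifit and Ifitm, 3 of 5 Oas and 6 of 8 promoters of the 12 further genes. It was found in 1 of 8 Irf, 1 of 5 Stat and 0 of 6 Ifi promoters. Of members with an entry that were called higher in A/J or BALB/c than in C57BL/6J, 6 of 9 held it. Of all other members with an entry 12 of 32 did. For the gamma-activated site the split ran the other way, with 1 of 9 and 11 of 32. These counts describe letters in 300-base windows and not binding, and the reference sequence is that of C57BL/6J.

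Of the 3 RNA sensors Ddx58, Ifih1 and Dhx58, only Dhx58 was called. Dhx58, a helicase of the same family that modulates the others, had 4.97, 4.74 and 5.24 RPKM in A/J, 2.86, 2.96 and 3.13 RPKM in BALB/c, and 2.12, 0.96 and 2.47 RPKM in C57BL/6J. The strains did not overlap, with A/J above BALB/c and BALB/c above C57BL/6J. It was higher in A/J than in C57BL/6J by 1.38 ± 0.21 (SE) on the log2 scale (limma, adjusted p = 0.0094). The call was lost without A/J 1 (adjusted p = 0.056), without A/J 1 and A/J 2 (adjusted p = 0.18) and when only these strains were fitted (adjusted p = 0.069). Neither BALB/c against C57BL/6J (0.78, adjusted p = 0.11) nor A/J against BALB/c (0.60, adjusted p = 0.18) passed. Ddx58 averaged 4.51, 3.74 and 3.51 RPKM in A/J eyes, BALB/c eyes and C57BL/6J eyes, and Ifih1 averaged 4.11, 2.86 and 3.09 RPKM, and neither was called in any comparison.

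The Irf genes encode the transcription factors that start and shape the response, and 0 of 9 were called by limma in any comparison of 2 strains. At an unadjusted p under 0.05, 1 of 9 passed in each comparison. That threshold was passed by 17.5% of all genes tested in A/J against C57BL/6J, by 13.8% in BALB/c against C57BL/6J and by 20.9% in A/J against BALB/c. Irf1, an activator of many induced genes and the most abundant of the Irf rows, had 22.90, 22.83 and 26.45 RPKM in A/J, 24.91, 21.42 and 24.82 RPKM in BALB/c, and 26.31, 21.74 and 54.06 RPKM in C57BL/6J. Apart from C57BL/6J 3, its values lay in 1 narrow band in all strains. Irf7, which drives interferon gene transcription, had 28.51, 20.24 and 38.10 RPKM in A/J, 27.16, 27.12 and 29.15 RPKM in BALB/c, and 13.90, 12.76 and 21.81 RPKM in C57BL/6J. In deposited RPKM, BALB/c lay wholly above C57BL/6J, while A/J 2 lay below the highest C57BL/6J library. On the scaled log2 values that limma tested, A/J 2 (-0.17 from the gene's mean) lay above C57BL/6J 3 (-0.29). On that scale A/J lay wholly above C57BL/6J for Irf7. Its log2 differences were 0.92 ± 0.23 in A/J against C57BL/6J (limma, adjusted p = 0.081) and 0.98 ± 0.23 in BALB/c against C57BL/6J (limma, adjusted p = 0.058). Irf7, singled out after its values were seen, passed in both comparisons after a GC correction (adjusted p = 0.0028 and 0.0076). It also passed in both without A/J 2 (adjusted p = 0.033 and 0.030), without A/J 3 (0.036 and 0.021) and without C57BL/6J 3 (0.049 and 0.032). Without A/J 3, 28.2% and 4.89% of all genes passed in these comparisons. With A/J 3 and C57BL/6J 3 left out together the adjusted p of Irf7 was 0.0022 and 3.1e-04, where 39.4% and 14.7% of all genes passed. Irf7 passed in neither comparison after quantile normalization, with values as deposited or in the fit of genes without shared sequence. In A/J against C57BL/6J it did not pass when only these strains were fitted. In BALB/c against C57BL/6J it passed when only these strains were fitted (adjusted p = 0.030) and without A/J 1 and A/J 2 (adjusted p = 0.029).

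The other Irf rows described were at 1 RPKM or more in every strain's mean. Without A/J 3, Irf2bp1 and Irf3 passed in A/J against C57BL/6J, as did 28.2% of all genes, and Irf2bp1 in A/J against BALB/c, as did 34.6%. Irf3, the partner of Irf7, averaged 18.2, 18.5 and 22.3 RPKM in A/J eyes, BALB/c eyes and C57BL/6J eyes. Irf9, the DNA-binding partner of Stat2, averaged 14.3, 9.23 and 15.2 RPKM, with 27.08 RPKM in C57BL/6J 3 and 11.05 and 7.44 RPKM in C57BL/6J 1 and C57BL/6J 2. Irf2, an antagonist of Irf1, averaged 11.6, 8.49 and 10.0 RPKM, and its co-repressor Irf2bp1 15.3, 20.5 and 20.9 RPKM. The low mean of Irf2bp1 in A/J came with 10.82 and 9.21 RPKM in A/J 1 and A/J 2 and 25.93 RPKM in A/J 3. Irf5 and Irf8, best known from myeloid cells, averaged 2.16, 2.81 and 2.98 RPKM and 1.40, 1.37 and 1.46 RPKM.

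The Stat genes carry the receptor signal to the nucleus, and 0 of 6 were called by limma in any comparison. At an unadjusted p under 0.05, 1 passed in A/J against C57BL/6J, 0 in BALB/c against C57BL/6J and 1 in A/J against BALB/c, shares no greater than those of all genes. Stat3, a transducer of cytokine signals and the most abundant of them, had 16.96, 14.86 and 23.27 RPKM in A/J, 15.71, 17.08 and 16.64 RPKM in BALB/c, and 18.04, 18.95 and 62.39 RPKM in C57BL/6J. C57BL/6J 3 lay far above every other library, and A/J and BALB/c overlapped. Stat2 averaged 7.90, 6.15 and 7.50 RPKM in A/J eyes, BALB/c eyes and C57BL/6J eyes, and Stat6, which acts in interleukin signalling, 8.83, 9.91 and 11.7 RPKM. Without A/J 3, Stat6 passed in A/J against C57BL/6J. Stat5a and Stat5b, transducers of hormone and cytokine signals, averaged 2.98, 2.55 and 3.05 RPKM and 9.63, 9.60 and 15.2 RPKM, and Stat5b had 25.12 RPKM in C57BL/6J 3. Stat5a shared 21.3% of its 31-base words (31 bases in a row of its transcripts) with other loci.

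The Oas family includes synthetases that, on meeting double-stranded RNA, make the oligoadenylates that activate RNase L. Of 7 rows, 4 were called higher in A/J than in C57BL/6J (Oas1a, Oas2, Oas3 and Oasl2) and 4 higher in BALB/c than in C57BL/6J (Oas1a, Oas2, Oas3 and Oasl1). Oas2 had 4.98, 3.90 and 6.36 RPKM in A/J, 3.39, 3.12 and 3.08 RPKM in BALB/c, and 1.09, 0.52 and 0.90 RPKM in C57BL/6J. All A/J libraries lay above all BALB/c libraries, which lay above all C57BL/6J libraries. The log2 difference from C57BL/6J was 2.14 ± 0.20 in A/J (limma, adjusted p = 4.8e-04) and 1.63 ± 0.20 in BALB/c (limma, adjusted p = 0.0025).

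Oas3 showed the same separation from C57BL/6J without a separation of A/J from BALB/c. It had 2.00, 1.52 and 2.21 RPKM in A/J, 1.61, 2.39 and 1.96 RPKM in BALB/c, and 0.44, 0.29 and 0.52 RPKM in C57BL/6J. Both albino strains lay wholly above C57BL/6J and overlapped each other. Its log2 difference from C57BL/6J was 1.45 ± 0.17 in A/J (limma, adjusted p = 0.0021) and 1.55 ± 0.17 in BALB/c (limma, adjusted p = 0.0014), and A/J against BALB/c gave -0.10 (adjusted p = 0.73).

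Oas1a shared 68.8% of its 31-base words with other loci, so its level is uncertain where reads could be split. It had 5.96, 4.32 and 3.90 RPKM in A/J, 3.30, 3.33 and 3.80 RPKM in BALB/c, and 1.59, 0.58 and 1.11 RPKM in C57BL/6J. In deposited RPKM, the A/J libraries lay above the BALB/c libraries and these above C57BL/6J. After scaling, A/J 3 (0.46 from the gene's mean, log2 scale) lay below BALB/c 3 (0.51), so the albino strains overlapped for Oas1a. Its log2 difference from C57BL/6J was 1.83 ± 0.24 in A/J (limma, adjusted p = 0.0037) and 1.51 ± 0.24 in BALB/c (limma, adjusted p = 0.0099). The BALB/c call was lost without BALB/c 2 or BALB/c 3 (adjusted p up to 0.065), and the A/J call only when A/J 1 and A/J 2 were both left out (adjusted p = 0.12). Oas1b, a gene of flavivirus resistance in mice, averaged 1.67, 1.15 and 1.12 RPKM, and Oas1c 1.82, 1.68 and 1.7 RPKM, in A/J eyes, BALB/c eyes and C57BL/6J eyes. Neither was called, and Oas1c shared 25.4% of its 31-base words with other loci.

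The OAS-like genes, 2 neighbours, were high in different strains. Oasl2, the most abundant of the Oas rows, had 21.46, 19.64 and 14.59 RPKM in A/J, 6.28, 5.99 and 6.54 RPKM in BALB/c, and 11.72, 7.30 and 11.79 RPKM in C57BL/6J. A/J lay wholly above both other strains, and BALB/c wholly below C57BL/6J. Oasl2 was higher in A/J than in BALB/c by 1.41 ± 0.20 on the log2 scale (limma, adjusted p = 0.0068), a call lost without BALB/c 2 or BALB/c 3 (adjusted p up to 0.052). Against C57BL/6J the difference was 0.94 ± 0.20 (limma, adjusted p = 0.042), a call kept in only 1 of the 9 fits that leave out a library, the one without A/J 3. Oasl1, which in mice restrains production of the Irf7 protein, had 7.43, 6.64 and 10.85 RPKM in A/J, 12.54, 14.17 and 16.02 RPKM in BALB/c, and 7.84, 4.05 and 9.14 RPKM in C57BL/6J. BALB/c lay wholly above the other strains, which overlapped. BALB/c against C57BL/6J gave 1.21 ± 0.26 (limma, adjusted p = 0.043), and the call was kept in 2 of 9 such fits, those without A/J 3 or C57BL/6J 3.

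**Figure D3:**
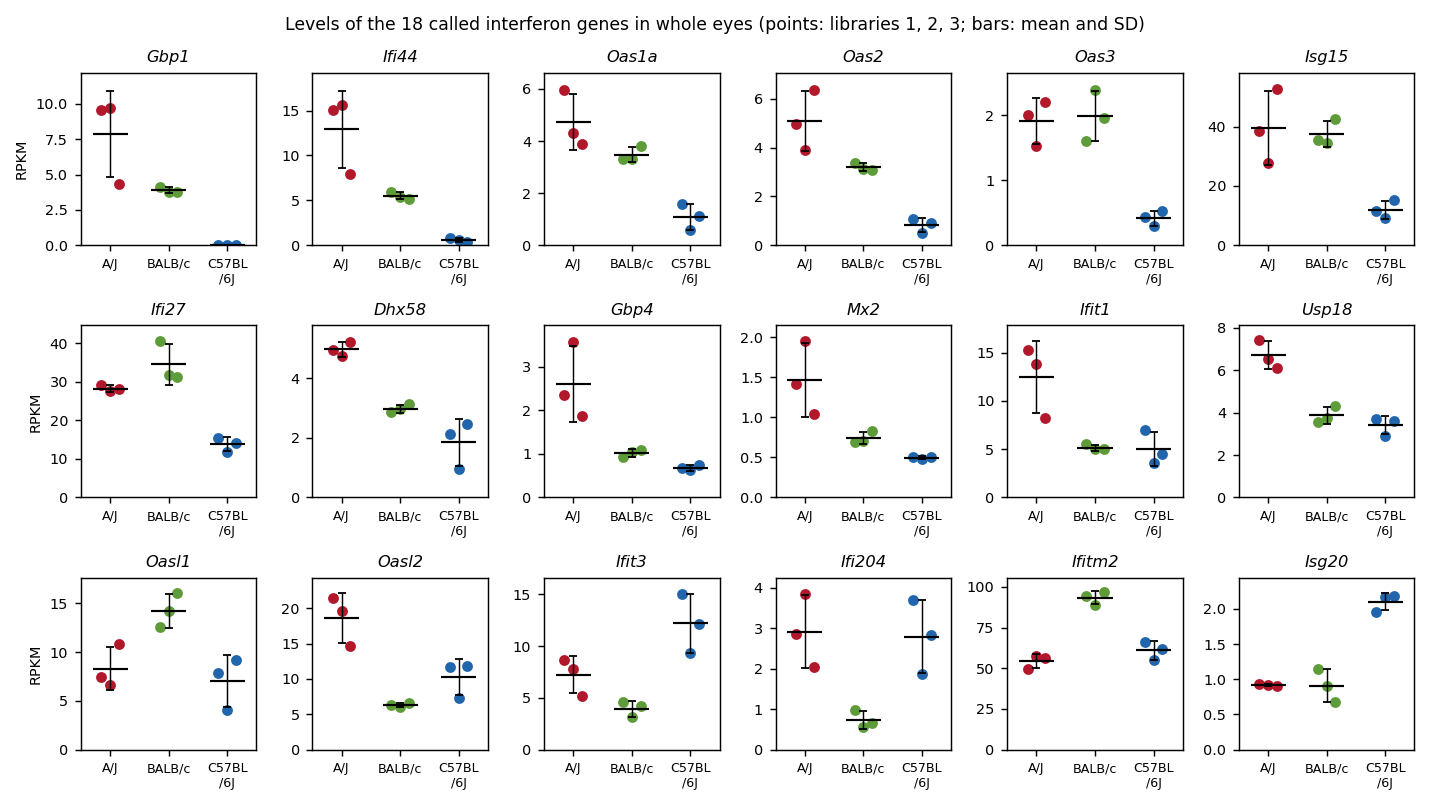
Each panel shows 1 of the 18 genes called in at least 1 comparison of strains, with the deposited RPKM on the vertical axis from 0 and A/J, BALB/c and C57BL/6J along the horizontal axis. Points are libraries 1, 2 and 3, and bars are the mean and SD of 3 libraries. Gbp1 and Ifi44 are near 0 in C57BL/6J, while Isg20 and Ifit3 are highest there.

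Isg15, a ubiquitin-like protein joined to newly made proteins, was called higher in both albino strains. It had 38.61, 27.59 and 52.55 RPKM in A/J, 35.42, 34.39 and 42.45 RPKM in BALB/c, and 11.52, 9.07 and 15.11 RPKM in C57BL/6J. A/J and BALB/c overlapped, and both lay wholly above C57BL/6J. The log2 difference from C57BL/6J was 1.78 ± 0.23 in A/J (limma, adjusted p = 0.0031) and 1.81 ± 0.23 in BALB/c (limma, adjusted p = 0.0030). Usp18, the protease that removes Isg15 from proteins and damps the receptor, had 7.43, 6.55 and 6.13 RPKM in A/J, 3.58, 3.73 and 4.32 RPKM in BALB/c, and 3.71, 2.91 and 3.63 RPKM in C57BL/6J. In deposited RPKM, A/J lay wholly above both other strains, which overlapped. After scaling, the lowest BALB/c library (-0.22 from the gene's mean, log2 scale) lay above the highest C57BL/6J library (-0.30). Usp18 was higher in A/J than in C57BL/6J by 0.98 ± 0.14 (limma, adjusted p = 0.0057), which became 0.053 when only these strains were fitted and 0.15 without A/J 1 and A/J 2. It was higher than in BALB/c by 0.66 ± 0.14 (limma, adjusted p = 0.047), a call kept in 2 of 9 fits that leave out a library, those without A/J 3 or C57BL/6J 3.

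The Ifit genes encode proteins that bind foreign RNA, and Ifit1, Ifit2 and Ifit3 are neighbours on chromosome 19. Ifit1, which holds RNA whose cap lacks host methylation, had 15.25, 13.84 and 8.21 RPKM in A/J, 5.51, 4.98 and 4.98 RPKM in BALB/c, and 6.98, 3.55 and 4.46 RPKM in C57BL/6J. A/J lay wholly above the other strains, although A/J 3 was close to the highest C57BL/6J library. The log2 difference in A/J against C57BL/6J was 1.34 ± 0.28 (limma, adjusted p = 0.039), a call kept in 2 of 9 fits that leave out a library, those without A/J 3 or C57BL/6J 1. Ifit3, the partner of Ifit1, ran the other way and was highest in C57BL/6J. It had 8.67, 7.77 and 5.21 RPKM in A/J, 4.58, 3.11 and 4.17 RPKM in BALB/c, and 15.06, 9.34 and 12.12 RPKM in C57BL/6J. The strains did not overlap. In BALB/c against C57BL/6J it was lower by a log2 difference of -1.33 ± 0.24 (limma, adjusted p = 0.017), and A/J against C57BL/6J gave -0.61 (adjusted p = 0.25). The BALB/c call was lost on leaving out C57BL/6J 1 or a BALB/c library (adjusted p up to 0.10), and Ifit3 shared 61.8% of its 31-base words with other loci. Ifit2 averaged 3.73, 2.18 and 2.76 RPKM in A/J eyes, BALB/c eyes and C57BL/6J eyes and was not called.

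The Ifitm genes, whose membrane proteins hinder the entry of enveloped viruses, were the most abundant of the 53. Ifitm1 had 119.55, 126.29 and 100.26 RPKM in A/J, 216.36, 158.45 and 184.86 RPKM in BALB/c, and 185.32, 103.05 and 483.25 RPKM in C57BL/6J. The C57BL/6J values were spread over a wider range than those of both other strains, and no comparison was called. Without C57BL/6J 3 the log2 difference of Ifitm1 was -0.22 in A/J against C57BL/6J (-0.76 with it) and 0.53 in BALB/c against C57BL/6J (0.00 with it), and neither was called. Ifitm2 had 49.23, 57.52 and 56.08 RPKM in A/J, 94.22, 88.86 and 96.68 RPKM in BALB/c, and 66.27, 54.88 and 61.57 RPKM in C57BL/6J. BALB/c lay wholly above both other strains, which overlapped. A/J against BALB/c gave -0.85 ± 0.12 (limma, adjusted p = 0.0077) and BALB/c against C57BL/6J gave 0.79 ± 0.12 (limma, adjusted p = 0.0083). The first call was lost without A/J 1, BALB/c 2 or BALB/c 3 (adjusted p up to 0.071) and after a GC correction (adjusted p = 0.056). The second was lost without any 1 BALB/c library (adjusted p up to 0.072). Ifitm3 averaged 64.3 ± 2.8, 80.7 ± 4.3 and 64.2 ± 12 RPKM in A/J eyes, BALB/c eyes and C57BL/6J eyes (SD, n = 3) and was not called. Ifitm2 and Ifitm3 shared 37.4% and 20.5% of their 31-base words with other loci.

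The Gbp genes encode large GTPases that coat the vacuoles and membranes of pathogens. All 5 had a higher mean in A/J than in either other strain, and Gbp1 and Gbp4 were called. Gbp1 had 9.60, 9.68 and 4.34 RPKM in A/J and 4.14, 3.78 and 3.74 RPKM in BALB/c, and was listed at 0.00, 0.00 and 0.01 RPKM in C57BL/6J. Every A/J and BALB/c library lay far above every C57BL/6J library. The fitted log2 difference from C57BL/6J was 4.00 ± 0.27 in A/J (limma, adjusted p = 7.5e-05) and 3.20 ± 0.27 in BALB/c (limma, adjusted p = 2.8e-04). The size of these differences depends on the 0.5 added before the logarithm, since the C57BL/6J values are at or near 0. A value listed at 0 can also be a failed estimate. For Gbp1 the A/J difference ranged from 3.09 to 6.21 over the alternatives and the BALB/c difference from 2.35 to 5.36.

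Gbp4 had 2.35, 3.58 and 1.88 RPKM in A/J, 0.93, 1.05 and 1.10 RPKM in BALB/c, and 0.67, 0.62 and 0.75 RPKM in C57BL/6J. The strains did not overlap. It was higher in A/J than in C57BL/6J by 1.43 ± 0.19 (limma, adjusted p = 0.0046) and than in BALB/c by 0.94 ± 0.19 (limma, adjusted p = 0.041). The comparison with BALB/c passed in 2 of 9 fits that leave out a library, those without A/J 3 or C57BL/6J 3, and not after a GC correction (adjusted p = 0.051). Gbp2, the most abundant of the Gbp rows, had 10.69, 11.79 and 6.57 RPKM in A/J, 7.24, 6.61 and 7.03 RPKM in BALB/c, and 7.59, 4.94 and 6.51 RPKM in C57BL/6J. A/J 1 and A/J 2 were the highest libraries, and A/J 3 lay among those of BALB/c and C57BL/6J. Gbp3 averaged 6.83, 2.92 and 3.74 RPKM and Gbp6 3.96, 2.34 and 3.13 RPKM in A/J eyes, BALB/c eyes and C57BL/6J eyes. Neither was called in the main fit, and Gbp6 shared 30.6% of its 31-base words with other loci. After a GC correction, Gbp3 was called higher in A/J than in BALB/c.

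The immunity-related GTPases Igtp, Iigp1 and Ifi47, which act on the vacuoles of intracellular parasites in mice, were not called in the main fit. After a GC correction, Igtp was called higher in A/J than in BALB/c. Igtp averaged 6.32, 3.67 and 5.28 RPKM in A/J eyes, BALB/c eyes and C57BL/6J eyes, Iigp1 averaged 2.21, 0.733 and 1.49 RPKM, and Ifi47 averaged 12.6, 8.83 and 6.66 RPKM. A/J had the highest mean for each, and in each A/J 3 was the lowest A/J library.

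Of the 8 Ifi genes, Ifi44 and Ifi27 were called higher in both albino strains than in C57BL/6J. Ifi44, a cytosolic protein of the interferon response, had 15.12, 15.67 and 7.90 RPKM in A/J, 5.93, 5.37 and 5.21 RPKM in BALB/c, and 0.83, 0.63 and 0.34 RPKM in C57BL/6J. The strains did not overlap, and even A/J 3 lay above every BALB/c library. Its log2 difference from C57BL/6J was 3.63 ± 0.28 in A/J (limma, adjusted p = 1.8e-04) and 2.59 ± 0.28 in BALB/c (limma, adjusted p = 0.0012), and A/J against BALB/c gave 1.04 ± 0.28 (limma, adjusted p = 0.10). Ifi27, a small hydrophobic membrane protein, had 29.14, 27.54 and 28 RPKM in A/J, 40.63, 31.75 and 31.15 RPKM in BALB/c, and 15.33, 11.80 and 14.22 RPKM in C57BL/6J. BALB/c lay above A/J and A/J above C57BL/6J, without overlap. Its log2 difference from C57BL/6J was 1.12 ± 0.14 in A/J (limma, adjusted p = 0.0031) and 1.47 ± 0.14 in BALB/c (limma, adjusted p = 6.3e-04). The A/J call was lost when A/J 1 and A/J 2 were both left out (adjusted p = 0.11).

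The DNA-binding proteins of Ifi202b, Ifi203 and Ifi204, neighbours on chromosome 1, did not share a pattern. Ifi204 had 2.85, 3.84 and 2.04 RPKM in A/J, 0.98, 0.55 and 0.67 RPKM in BALB/c, and 3.69, 1.87 and 2.82 RPKM in C57BL/6J. BALB/c lay wholly below the other strains, which overlapped. A/J against BALB/c gave 1.41 ± 0.26 (limma, adjusted p = 0.025) and BALB/c against C57BL/6J gave -1.26 ± 0.26 (limma, adjusted p = 0.035). The first call was lost on leaving out A/J 1, A/J 2 or a BALB/c library (adjusted p up to 0.14). The second was lost on leaving out A/J 1, C57BL/6J 1, C57BL/6J 3 or a BALB/c library (adjusted p up to 0.17). Ifi204 shared 46.0% of its 31-base words with other loci and Ifi203 24.2%. Ifi203 averaged 1.22, 1.56 and 0.713 RPKM and Ifi202b 19.4, 13.4 and 12 RPKM in A/J eyes, BALB/c eyes and C57BL/6J eyes. For Ifi202b, A/J 3 had 8.32 RPKM and A/J 1 and A/J 2 had 23.79 and 25.94 RPKM.

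Ifi30, a lysosomal reductase that prepares antigens, averaged 13.9, 18.4 and 13.4 RPKM in A/J eyes, BALB/c eyes and C57BL/6J eyes. Ifi35 averaged 21.7, 18.8 and 15.8 RPKM. Neither was called in the main fit, and A/J lay wholly above C57BL/6J for Ifi35, which was called there after a GC correction.

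Of the further antiviral effectors, Mx2 and Isg20 were called in the main fit and Rsad2 and Bst2 were not. With values as deposited, Bst2 was called lower in BALB/c than in C57BL/6J. Mx2, a dynamin-like GTPase, had 1.41, 1.95 and 1.04 RPKM in A/J, 0.69, 0.70 and 0.83 RPKM in BALB/c, and 0.51, 0.48 and 0.50 RPKM in C57BL/6J. The strains did not overlap, and A/J against C57BL/6J gave 1.01 ± 0.18 (limma, adjusted p = 0.017). That call was lost without any 1 C57BL/6J library (adjusted p up to 0.063). With 1 A/J library left out, Mx2 no longer reached 1 RPKM in 3 libraries and was not tested. Isg20, an exonuclease that degrades RNA, was the only gene of the 53 called lower in A/J eyes than in C57BL/6J eyes. It had 0.93, 0.92 and 0.90 RPKM in A/J, 1.15, 0.90 and 0.68 RPKM in BALB/c, and 1.96, 2.17 and 2.18 RPKM in C57BL/6J.

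Both albino strains thus lay wholly below C57BL/6J for Isg20. Its log2 difference from C57BL/6J was -0.79 ± 0.15 in A/J (limma, adjusted p = 0.025) and -0.77 ± 0.15 in BALB/c (limma, adjusted p = 0.028). The A/J call was kept in 3 of 9 fits that leave out a library, those without A/J 3, BALB/c 1 or BALB/c 3, and the BALB/c call in 4 of 9, those without A/J 2, A/J 3, BALB/c 1 or C57BL/6J 3. Both calls were lost after a GC correction, with a difference of -0.50 in A/J (adjusted p = 0.25) and of -0.79 in BALB/c (adjusted p = 0.079). Isg20l2, its nucleolar relative, averaged 6.71, 5.97 and 5.96 RPKM in A/J eyes, BALB/c eyes and C57BL/6J eyes. Bst2, which tethers budding virions to the cell surface, averaged 23.5, 15.4 and 26.1 RPKM, and Rsad2, an enzyme that makes a chain-terminating nucleotide, averaged 1.97, 1.40 and 1.29 RPKM.

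**Figure D4:**
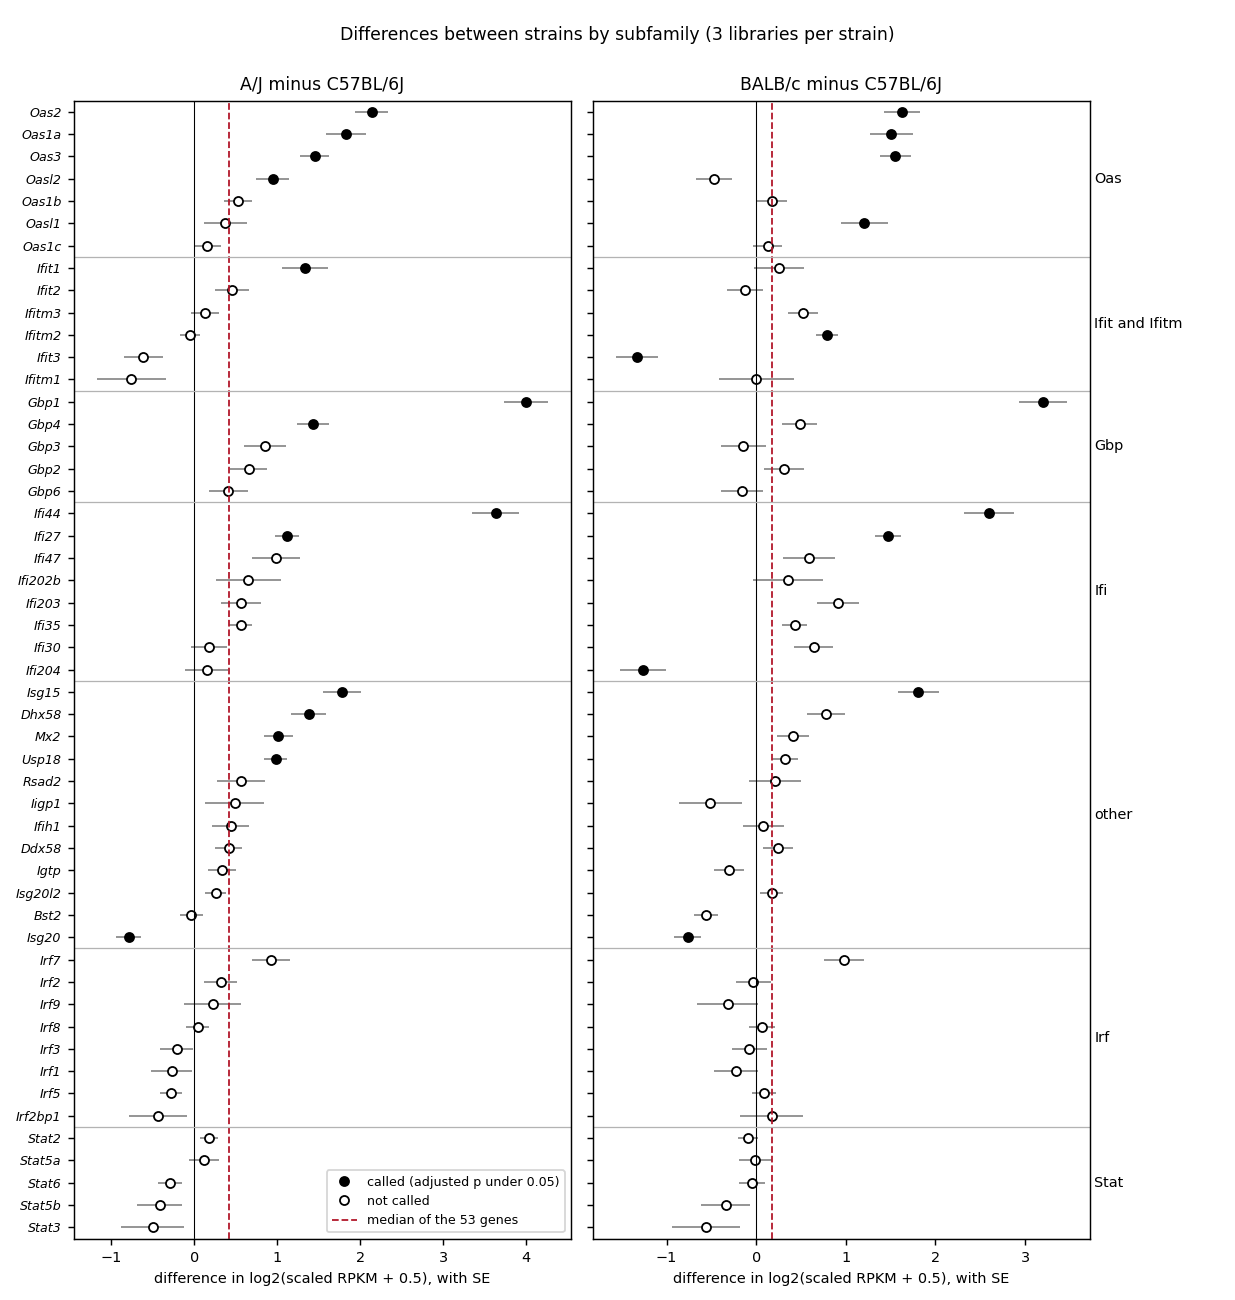
The left panel compares A/J with C57BL/6J and the right panel BALB/c with C57BL/6J, with each of 51 genes at its difference in log2(scaled RPKM + 0.5) and its SE, grouped by subfamily, and filled points called. The dashed line is the median of the 53 genes (0.42 at the left and 0.18 at the right), and no Irf or Stat point is filled.

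Read by subfamily, the median log2 difference in A/J against C57BL/6J was 0.94 for the 7 Oas, 0.85 for the 5 Gbp, 0.61 for the 8 Ifi and 0.46 for the 12 further genes. It was 0.04 for the 6 Ifit and Ifitm, 0.04 for the 9 Irf and -0.09 for the 6 Stat genes. In BALB/c against C57BL/6J the medians were 1.21 for Oas, 0.61 for Ifi, 0.31 for Gbp, 0.19 for the further genes, 0.12 for Ifit and Ifitm, 0.07 for Irf and -0.07 for Stat. In A/J against BALB/c the medians were 0.79 for Gbp, 0.44 for the further genes, 0.32 for Oas, 0.21 for Ifi, 0.09 for Ifit and Ifitm, 0.09 for Stat and -0.05 for Irf.

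In deposited RPKM, all A/J libraries lay above all C57BL/6J libraries for 17 of the 53 genes and below for 4, where 5.26% and 11% of all genes tested did so. All BALB/c libraries lay above all C57BL/6J libraries for 18 and below for 12, against 6% and 27.4% of all genes. All A/J libraries lay above all BALB/c libraries for 24 and below for 7, against 23.3% and 9.78% of all genes, so for A/J over BALB/c the background share is itself large.

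How many genes were called depended on single libraries. For A/J against C57BL/6J the count was 9 without A/J 1 (17.3% of those tested, against 1.19% of all genes) and 31 without A/J 3 (59.6%, against 28.2% of all genes). In BALB/c against C57BL/6J it was 6 without BALB/c 2 and also 6 without BALB/c 3 (11.3% each, against 1.22% and 1.16% of all genes). In A/J against BALB/c leaving out A/J 1 gave 1 (1.92%, against 1% of all genes) and A/J 2 gave 2 (3.85%, against 1.21%). Leaving out A/J 3 gave 20, BALB/c 1 gave 2 (3.77%, against 1.09%) and C57BL/6J 1 gave 3 (5.66%, against 2.11%). BALB/c 2 and BALB/c 3 each gave 0, where 0.745% and 0.613% of all genes were called. The 20 without A/J 3 are 38.5% of those tested, close to the 34.6% of all genes called in that fit. At an unadjusted p under 0.05, limma gave 15 of the 53 without BALB/c 2 (28.3%, against 10.3% of all genes) and 17 without BALB/c 3 (32.1%, against 10.1%). The 31 calls over the comparisons of strains fell on 18 genes, and 12 of the 31 were kept under every alternative tried. These 12 were Gbp1, Ifi44, Isg15, Oas2 and Oas3 in both albino strains against C57BL/6J, Gbp4 in A/J against C57BL/6J and Ifi27 in BALB/c against C57BL/6J. Of these genes, all but Isg15 and Ifi27 averaged under 1 RPKM in C57BL/6J. Such genes are listed and were tested only because of the strains in which they are higher, so their calls are no independent support.

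The rest of the pathway was followed with lists of further genes. Calls of these genes, and of the markers below, come from the fit of all 9 libraries and were not rechecked in the alternative fits. Of 12 interferon genes sought, 0 had a row in the tables, which list only genes at about 1 RPKM or more in some strain. The 9 receptor and Janus kinase genes had 0 calls by limma in any comparison and 1, 2 and 1 at an unadjusted p under 0.05 in A/J against C57BL/6J, BALB/c against C57BL/6J and A/J against BALB/c, where 17.5%, 13.8% and 20.9% of all genes passed. Of 13 negative regulators, 2, 1 and 2 passed at an unadjusted p under 0.05 in limma, in the same order of comparisons. Among them the only call was Socs1, which inhibits Janus kinases. Socs1 had 0.63, 0.98 and 1.30 RPKM in A/J, 1.75, 2.12 and 2.51 RPKM in BALB/c, and 1.5, 1.64 and 2.13 RPKM in C57BL/6J, so A/J lay wholly below both other strains. A/J against BALB/c gave -0.91 ± 0.19 (limma, adjusted p = 0.044). Among 13 sensing and adaptor genes the only one called was Zbp1, a sensor of left-handed nucleic acid, with 3.35, 3.38 and 4.01 RPKM in A/J, 2.54, 2.47 and 2.54 RPKM in BALB/c, and 1.29, 0.71 and 1.28 RPKM in C57BL/6J. The strains did not overlap, and Zbp1 was higher by 1.46 ± 0.16 in A/J (limma, adjusted p = 9.9e-04) and by 1.08 ± 0.16 in BALB/c (limma, adjusted p = 0.0059) than in C57BL/6J. At an unadjusted p under 0.05 in limma, 5, 1 and 7 of the 13 sensing and adaptor genes passed, against 17.5%, 13.8% and 20.9% of all genes. Their median log2 differences were 0.13, -0.05 and 0.29, in the same order of comparisons.

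Of 33 other interferon-induced genes tested, 5 were called higher and 0 lower in A/J than in C57BL/6J, 5 higher and 0 lower in BALB/c than in C57BL/6J, and 1 higher and 0 lower in A/J eyes than in BALB/c eyes. Of all genes tested, 1.08%, 1.93% and 0.573% were called higher in these comparisons and 1.62%, 1.15% and 1.9% lower. The median log2 differences of the 33 genes were 0.44, 0.21 and 0.16. At an unadjusted p under 0.05 in limma, 21, 16 and 9 of the 33 passed, where 17.5%, 13.8% and 20.9% of all genes did. H28, an interferon-induced minor antigen, had 7.62, 7.46 and 3.96 RPKM in A/J and 2.77, 2.26 and 2.58 RPKM in BALB/c, and was listed at 0.00, 0.00 and 0.02 RPKM in C57BL/6J. Like Gbp1, it was near 0 in every C57BL/6J library and present in every other library. Rtp4, a chaperone of receptors, averaged 13.3, 8.43 and 3.84 RPKM in A/J eyes, BALB/c eyes and C57BL/6J eyes, with log2 differences from C57BL/6J of 1.78 ± 0.25 in A/J (limma, adjusted p = 0.0054) and 1.25 ± 0.25 in BALB/c (limma, adjusted p = 0.032). Trim30 averaged 4.53, 1.72 and 1.08 RPKM, and A/J against C57BL/6J gave 1.72 ± 0.26 (limma, adjusted p = 0.0083). The other calls against C57BL/6J were Sp100 in A/J, Tor3a and Slfn2 in BALB/c, and Apol9b in both. Apol9b shared 64.9% of its 31-base words with other loci. The rows Irgm and Iigp2, whose descriptions are those of Irgm1 and Irgm2, were among the 33 and were not called. The 8 immunoproteasome and transporter genes had 0 calls by limma, and 2, 3 and 0 passed at an unadjusted p under 0.05 in the same order of comparisons. That threshold was passed by 17.5%, 13.8% and 20.9% of all genes.

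Markers of the tissue and of immune cells were read beside these genes. All 7 retinal, 7 lens and 6 corneal markers had rows. Sag, the rod arrestin, was the only retinal marker called, with 2382, 2903 and 2092 RPKM in A/J, 1752, 1675 and 1700 RPKM in BALB/c, and 1296, 1232 and 1134 RPKM in C57BL/6J. Its levels did not overlap between strains, and Sag was higher in A/J than in C57BL/6J by 1.11 ± 0.16 (limma, adjusted p = 0.0065). Krt15, a keratin of basal epithelium, was the only corneal marker called, with 46.2, 56.3 and 48.6 RPKM in A/J, 156, 120 and 134 RPKM in BALB/c, and 484, 311 and 954 RPKM in C57BL/6J. Each of the 3 comparisons called it, with A/J lowest and C57BL/6J highest, at -3.26 ± 0.30 in A/J against C57BL/6J (limma, adjusted p = 4.8e-04), -1.76 ± 0.30 in BALB/c against C57BL/6J (0.015) and -1.50 ± 0.30 in A/J against BALB/c (0.039). No lens marker was called by limma, and 3, 4 and 2 of 7 passed at an unadjusted p under 0.05, where 17.5%, 13.8% and 20.9% of all genes passed. At the same threshold, 3, 1 and 4 of 7 retinal and 2, 3 and 3 of 6 corneal markers passed. The summed level of the lens markers was 93152 to 103396 RPKM in A/J, 115446 to 122335 RPKM in BALB/c and 72727 to 94967 RPKM in C57BL/6J. Their median log2 difference was 0.35 in A/J against C57BL/6J, 0.66 in BALB/c against C57BL/6J and -0.22 in A/J against BALB/c. Of 14 markers of microglia and macrophages, which express many interferon genes, 13 were tested and 0 were called by limma (3, 2 and 3 at an unadjusted p under 0.05, where 17.5%, 13.8% and 20.9% of all genes passed). Their summed level was 56.3 to 62.3 RPKM in A/J, 52.4 to 56.0 RPKM in BALB/c and 68.0 to 84.0 RPKM in C57BL/6J, and their median log2 difference was 0.01 in A/J against C57BL/6J and -0.06 in BALB/c against C57BL/6J. Itgam had 25.3 RPKM in C57BL/6J 3 and 8.45 RPKM or less in every other library. Of 9 endothelial markers tested, 1 was called (Vwf, lower in A/J eyes than in BALB/c eyes), and 3, 0 and 3 passed at an unadjusted p under 0.05 in limma. Their sum was 72.0 to 75.7 RPKM in A/J, 87.0 to 92.1 RPKM in BALB/c and 102 to 118 RPKM in C57BL/6J. Of 14 T and natural killer cell and 9 dendritic cell markers, 0 had a row. Of 10 B and plasma cell markers, Igj and Blnk had rows, with sums of 7.62 to 11.4 RPKM in A/J, 5.88 to 8.73 RPKM in BALB/c and 4.94 to 7.09 RPKM in C57BL/6J. Of 9 neutrophil markers only S100a9 had a row, with 5.79, 6.18 and 0.81 RPKM in A/J, 1.33, 1.22 and 1.19 RPKM in BALB/c, and 13.15, 3.62 and 4.74 RPKM in C57BL/6J. S100a9 was low in A/J 3, where all 5 Gbp and all 8 Ifi genes also lay below the mean of A/J 1 and A/J 2. The part of immune, epithelial or lens cells in the differences above was not tested.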

How the data were processed

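Poly(A) RNA of whole eyes was sequenced in 9 libraries, 3 per strain, and a sample's strain was taken from its label. For each library the authors deposited a table of 13089 genes, whose values were taken as RPKM. Values multiplied by transcript length (kilobases) summed to 99.4% to 101.8% of the RPKM total in 8 libraries and to 117% in C57BL/6J 3. Per the submitters' processing notes, CASAVA 1.7, GenomeStudio and build mm9 were used. Depth and the counting rule were not given in the sources used here, so no counting interval or floor is given.

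RPKM values were scaled by median-of-ratios size factors and taken to log2 after adding 0.5. Genes at 1 RPKM or more in at least 3 libraries (12920, with 169 left out) were fitted with limma 3.58.1 in R 4.3.3 (trended prior variance, robust estimation, all 9 libraries in 1 fit, strain as the only term). Two-sided p-values were adjusted by Benjamini-Hochberg over all genes tested, and calls were made at an adjusted p under 0.05. Adding 0.5 makes changes of low genes look smaller. Means with SDs, and statements on whether libraries of strains overlapped, refer to deposited RPKM unless scaled values are named. The code was checked on simulated data. Near-identical sequence was measured as the percent of a gene's 31-base words (GENCODE vM21 transcripts) found at another locus, with a limit of 20%. Promoters are RefSeq entries of GRCm38.p6, matched by symbol for 41 of the 53 genes.

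The members and lists were chosen with earlier results of these data known. Values in every library are given for genes called with a log2 difference of at least 1, and for the most abundant of each subfamily. Promoters were taken by the F test, and up to 3 called genes of each pathway list are described. Others are named after their values were seen. Of the 53 genes, 2 entered the fits and counts and are not reported here singly.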

Additional observations from a re-analysis of the deposited data

How the results depend on the processing

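Alternatives were another pseudocount, no filter, values as deposited, quantile normalization, a GC correction, genes without shared sequence, a replicate block, only the 2 strains compared, and fits without 1 or 2 libraries. In A/J against C57BL/6J, with 14 of the 53 genes called, the count was 8 with only these strains fitted, 9 to 31 over the fits without 1 library, 6 without A/J 1 and A/J 2, and 33 without A/J 3 and C57BL/6J 3. In BALB/c against C57BL/6J, with 12 called, it was 7 among genes without shared sequence and 6 to 15 without 1 library. In A/J against BALB/c, with 5 called, it was 1 among genes without shared sequence, 0 to 20 without 1 library, 0 without A/J 1 and A/J 2 (9 at an unadjusted p under 0.05 in limma) and 32 without A/J 3 and C57BL/6J 3. The F test, with 17 called, gave 9 to 34 without 1 library, 11 without A/J 1 and A/J 2, and 42 without A/J 3 and C57BL/6J 3. Genes of all kinds were also called more often in such fits: the F test called 32.8% of all genes without A/J 3, and without A/J 3 and C57BL/6J 3 the shares were 39.4%, 14.7% and 60.2% in these comparisons and 61.6% in the F test. The median of the 53 genes in A/J against C57BL/6J was 0.60 without A/J 3 and 0.12 without A/J 1 and A/J 2. With only A/J and C57BL/6J fitted, the 8 called were 15.1% of the members tested, against 1.08% of all genes. Among genes without shared sequence, 29.5%, 15.9% and 2.27% of members were called in these comparisons, against 2.22%, 1.75% and 1.29% of all genes. No called difference of the 53 genes changed sign under any alternative.

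Deviations of libraries with the same replicate number correlated at 0.34, 0.54 and 0.34 for number 1 and at 0.24, 0.47 and 0.09 for number 3. For number 2 the correlations were -0.51, 0.01 and 0.02. Libraries of unlike number, from different strains, ranged from -0.67 to 0.60. Whether libraries of the same number shared a batch was not tested. With replicate number as a block, the counts were 15, 13, 6 and 19 for A/J against C57BL/6J, BALB/c against C57BL/6J, A/J against BALB/c and the F test, and with a GC correction as well 17, 14, 6 and 20. In the same order, 3.14%, 3.08%, 2.89% and 4.67% of all genes were called with the block. With both, 3.86%, 4.47%, 2.78% and 5.94% were called. The block added Irf7 to the calls of both comparisons with C57BL/6J. In A/J against BALB/c the block added Ifi44 and Ifit1 and lost Usp18. With it, 26.1%, 15% and 27.4% of all genes passed at an unadjusted p under 0.05 in the comparisons of strains, in the same order. Without it, 17.5%, 13.8% and 20.9% did. The GC correction alone gave 6 higher and 0 lower in A/J against BALB/c, against 4 and 1 without it. There it added Gbp3, Ifi44 and Igtp and lost Gbp4 and Ifitm2. It added Ifi35 and Irf7 in A/J against C57BL/6J and Ifi203 and Irf7 in BALB/c against C57BL/6J, and lost Isg20 in both. In A/J against C57BL/6J the corrected median was 0.32 over the 53 genes and 0.04 over all genes, against 0.42 and -0.01 without correction. With values as deposited, the median of all genes moved to -0.11 in A/J against C57BL/6J and -0.17 in BALB/c against C57BL/6J, where 156 genes of all kinds were then called higher and 225 lower, against 250 and 149 after scaling. Among the 53 genes that split was 8 higher and 4 lower, against 9 and 3, with Bst2 gained and Oasl1 lost. With 3 libraries per strain and no depth, the cause of these dependences was not tested.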
